A study of Homo sapiens with 4 samples.

Results

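The aldo-keto reductases of the AKR1A, AKR1B and AKR1C subfamilies were followed by gene symbol, with 7 genes listed: AKR1A1, AKR1B1, AKR1B10, AKR1C1, AKR1C2, AKR1C3 and AKR1C4. Of these, 3 had a named probe set (the array's unit of measurement, a group of probes for 1 transcript cluster), AKR1C1, AKR1C2 and AKR1C3, with 1 probe set each among 18603. AKR1A1, AKR1B1, AKR1B10 and AKR1C4 had 0 named probe sets and were not analysed here, so the data speak only of the AKR1C subfamily. The family was chosen by the signal of AKR1C3, already known to be lower in the knockdown arrays of this comparison, and its members by their symbols. Their values in that comparison are therefore given as a description, and no p-value is printed for them.

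The arrays measured total RNA of MDA-MB-231, an established human breast carcinoma line with mesenchymal features, grown in culture. In 2 samples, labelled shDROSHA, a hairpin RNA was directed against DROSHA, the nuclear ribonuclease that releases microRNA precursors from their primary transcripts. The other 2 samples, labelled shNC, were the control, which the series' design text calls mock-transfected. The titles call the replicates of each group biological. Whether the cells were a pool or a clone, how long they carried the hairpin and what they shared beyond the cell line is not stated in the labels, and p-values measure only the spread between these samples.

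Aldo-keto reductases are soluble enzymes that reduce aldehydes and ketones with NADPH. The AKR1C enzymes act on steroids and prostaglandins. AKR1C1 inactivates progesterone, AKR1C2 inactivates dihydrotestosterone, and AKR1C3 makes testosterone from androstenedione and reduces prostaglandins to F-type forms. AKR1C4 is mainly a liver enzyme of bile acid synthesis, AKR1B1 (aldose reductase) converts glucose to sorbitol, AKR1B10 reduces retinaldehyde, and AKR1A1 is a general aldehyde reductase. Several AKR1C and AKR1B genes are known targets of NRF2, the transcription factor of the antioxidant response.

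The AKR1C genes lie side by side on chromosome 10 and are close paralogs, and their start regions show how alike they are. The windows below, from RefSeq (GRCh38.p14), run from 250 bases before to 50 bases after an annotated start site. They are shown because all 3 measured genes were lower in the knockdown arrays. RefSeq lists 2 starts for AKR1C3, and capitals mark the longest run that all 4 windows hold.
AKR1C1 (chr10:4963165-4963464, + strand): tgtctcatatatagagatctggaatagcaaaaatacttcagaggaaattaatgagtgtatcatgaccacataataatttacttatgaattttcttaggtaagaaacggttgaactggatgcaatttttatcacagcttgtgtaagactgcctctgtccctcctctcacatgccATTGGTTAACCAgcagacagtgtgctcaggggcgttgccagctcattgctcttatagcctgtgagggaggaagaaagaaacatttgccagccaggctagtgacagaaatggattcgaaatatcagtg
AKR1C2 (chr10:5003808-5004107, - strand): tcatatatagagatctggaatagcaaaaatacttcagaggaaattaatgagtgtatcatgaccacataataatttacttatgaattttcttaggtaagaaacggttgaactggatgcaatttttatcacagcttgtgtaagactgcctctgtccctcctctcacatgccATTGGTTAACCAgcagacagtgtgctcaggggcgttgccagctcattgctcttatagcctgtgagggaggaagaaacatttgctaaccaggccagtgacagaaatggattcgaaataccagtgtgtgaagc
AKR1C3 start 1 (chr10:5048531-5048830, + strand): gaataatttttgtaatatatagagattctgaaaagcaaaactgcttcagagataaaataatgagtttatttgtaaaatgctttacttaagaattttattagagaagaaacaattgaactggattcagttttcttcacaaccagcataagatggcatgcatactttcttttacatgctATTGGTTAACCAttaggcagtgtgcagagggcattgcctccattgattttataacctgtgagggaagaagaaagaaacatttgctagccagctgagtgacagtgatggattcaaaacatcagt
AKR1C3 start 2 (chr10:5094164-5094463, + strand): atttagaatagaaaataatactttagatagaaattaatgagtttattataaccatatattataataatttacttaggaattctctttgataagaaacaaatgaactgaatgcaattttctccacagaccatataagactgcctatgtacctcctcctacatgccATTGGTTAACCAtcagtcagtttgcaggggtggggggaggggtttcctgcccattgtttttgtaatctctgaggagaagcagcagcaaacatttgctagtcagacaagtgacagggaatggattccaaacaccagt

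The AKR1C1 and AKR1C2 windows were nearly the same sequence, with 288 identical bases in a global alignment, or 96% of the 300-base window, and 1 unbroken run of 245 shared bases. AKR1C3 was further away: its start 1 was identical to AKR1C1 at 77.3% of the window and to AKR1C2 at 74.3%, and its start 2 at 75.3% and 75.7%. The 2 AKR1C3 windows were 74% identical to each other, no closer than either was to AKR1C1. The AKR1C4 window was identical to AKR1C1 at 68.3%. These figures concern the start regions. The probe sequences were not analysed here, so how far each probe set also responds to transcripts of its paralogs is unknown, and the 3 probe sets are not taken as 3 independent measurements.

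The run in capitals, attggttaacca, is 12 bases long and begins, counted from the start site, at -77 in AKR1C1, -81 in AKR1C2, -73 in AKR1C3 start 1 and -86 in AKR1C3 start 2. It occurred on either strand in 5 of 35116 RefSeq windows (0.0142%), namely these 4 and that of PPFIA2, a scaffold protein of synapses, whose signal differed by 0.02 (SE 0.104) between the groups without passing the threshold used below. The run was found as the longest one shared and was not searched for in advance, and related sequences share runs by descent. It contains the CCAAT box (ccaat, read as attgg on the other strand), which 34.6% of all windows held. The other motifs searched on both strands were the TATA box (tataaa, in 11.5% of all windows), the core of the antioxidant response element bound by NRF2 (tgacnnngc, in 13.3%) and the AP-1 site (tgantca, in 7.71%). Of these the 4 windows held 1 match, a TATA box on the other strand at -26 from AKR1C3 start 1. This says only which letters stand in these windows, and sequence further from the start was not searched.

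DROSHA itself was lower in both knockdown arrays. Its log2 signals were 8.71 and 8.74 in shDROSHA and 9.66 and 9.76 in shNC, a difference of -0.99 on the log2 scale (SE 0.0733). All log2 signals of the series lay between 3.35 and 13.59. Of 7 markers of mesenchymal-like breast carcinoma cells fixed for this check, all 7 had a mean signal over the 4 arrays above the median of all probe sets. Among them VIM (vimentin) was at 11.82 to 11.88. SPARC lay below that median in both shNC arrays (7.18 and 7.13) and above it in both shDROSHA arrays (8.09 and 7.81). In the trended fit described below, 2 of these 7 rose, SPARC (0.79) and AXL (0.33), 2 fell, CAV1 (-0.23) and MSN (-0.22), and 3 did not pass. Of 13 measured markers of other cell types and of luminal breast cells, 1 was above the median, CD68, and ESR1, the estrogen receptor, lay between 6.02 and 6.39. Group means of the 13 ran from 4.49 to 9.53 in shDROSHA and from 4.28 to 9.33 in shNC. Summed on the linear scale, their signal was 10.66 (as log2) in both knockdown arrays against 10.51 and 10.57 in the controls. CD68 made up 43.0% to 46.3% of that sum, and without it the sums were 9.80 and 9.77 against 9.69 and 9.76. Of the 13, TFF1 rose (0.62, SE 0.170) and 12 did not pass. Over all probe sets 6.41% passed, and of those at or above the median signal 5.31% fell and 5.64% rose. The constant fit, also described below, called 0 of the 7 and 0 of the 13. The part of these markers in the differences below was not tested.

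AKR1C3 showed the largest difference of the 3 genes. Its log2 signals were 6.53 and 6.42 in shDROSHA and 7.54 and 7.70 in shNC. Both knockdown arrays lay below both controls, as at 24.4% of all probe sets. The gap between the groups was far wider than the spread within either. The group means were 6.47 ± 0.0774 and 7.62 ± 0.116 (log2, SD, n = 2 each), which is 2.22-fold lower in shDROSHA (difference -1.15 on the log2 scale, SE 0.130). Among all 18603 probe sets AKR1C3 ranked 13 from the most lowered, and 4 among the 3721 of the middle of 5 equal bins of signal. These ranks describe the value that chose the family and carry no test. In bulk RNA, fewer cells that express a gene and less RNA per cell cannot be told apart.

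AKR1C1 was also lower, by less than AKR1C3. Its log2 signals were 5.24 and 5.25 in shDROSHA and 5.78 and 5.94 in shNC. The groups again did not overlap, with shDROSHA lower, as at 24.4% of all probe sets. The knockdown arrays were closer to each other than the controls were. The means were 5.24 ± 0.00824 and 5.86 ± 0.114 (log2, SD, n = 2 each), 1.53-fold lower in shDROSHA, with a difference of -0.61 (SE 0.170). AKR1C1 lay at percentile 19.8 of mean signal and ranked 35 from the most lowered among the 3721 probe sets of its signal bin, the dimmest of 5 equal bins.

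AKR1C2 differed least and was the dimmest. Its log2 signals were 3.96 and 3.97 in shDROSHA and 4.34 and 4.26 in shNC, means of 3.96 ± 0.00398 and 4.30 ± 0.0546 (SD, n = 2 each). The arrays of the groups did not overlap, with shDROSHA lower, as at 24.4% of all probe sets. The difference was -0.33 (SE 0.195), 1.26-fold lower. With a mean signal at percentile 0.285 of all probe sets, AKR1C2 sat near the floor of the array, where a signal can be background and differences are compressed. It ranked 263 from the most lowered of the 3721 probe sets of the same bin.

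**Figure D1:**
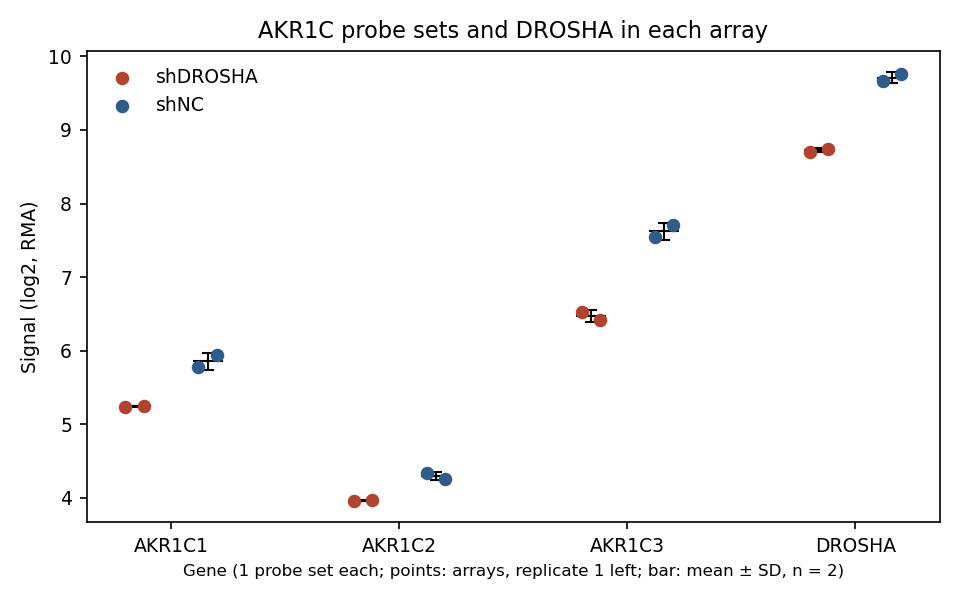
Log2 RMA signal of AKR1C1, AKR1C2, AKR1C3 and the targeted gene DROSHA in each of the 4 arrays, with points for arrays and bars for the group mean ± SD (n = 2). In all 4 genes both shDROSHA arrays lie below both shNC arrays, as at 24.4% of all probe sets. The gap is widest for AKR1C3 (6.47 against 7.62) and narrowest for AKR1C2 (3.96 against 4.30).

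Read against the whole array, 2 of the 3 AKR1C probe sets passed the threshold in the lower direction and 0 in the higher. The threshold was a Benjamini-Hochberg adjusted p of 0.05 over all probe sets in limma, with a prior variance that follows signal level (the trended fit). AKR1C3 and AKR1C1 passed and AKR1C2 did not. Over all probe sets 6.41% were called in either direction, 3.28% as lower and 3.12% as higher. With each array centred on its median, the calls were 747 higher and 448 lower in place of 581 and 611. In the dimmest bin of signal, which holds AKR1C1 and AKR1C2, 0.484% were called lower, against 3.36% in the middle bin, which holds AKR1C3. Groups did not overlap at 47.8% of all probe sets, with shDROSHA higher at 23.4% and lower at 24.4%, as at all 3 AKR1C probe sets. The median difference was -0.61 over the 3 and 0.000865 over all probe sets. Since AKR1C3's value in this comparison led to the family, nothing is read from these counts.

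With 1 constant prior variance for all probe sets (the constant fit) limma called 0 of the 3 and 0.00538% of all probe sets, of which 2774 had an unadjusted p under 0.05. Whichever array was left out, the difference of AKR1C3 lay between -1.07 and -1.23. That value chose the family, so its persistence in the same arrays is a description and not a test. AKR1C1 was not called without any 1 of the 4 arrays, nor with each array centred on its median, although its difference stayed between -0.53 and -0.70.

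**Figure D2:**
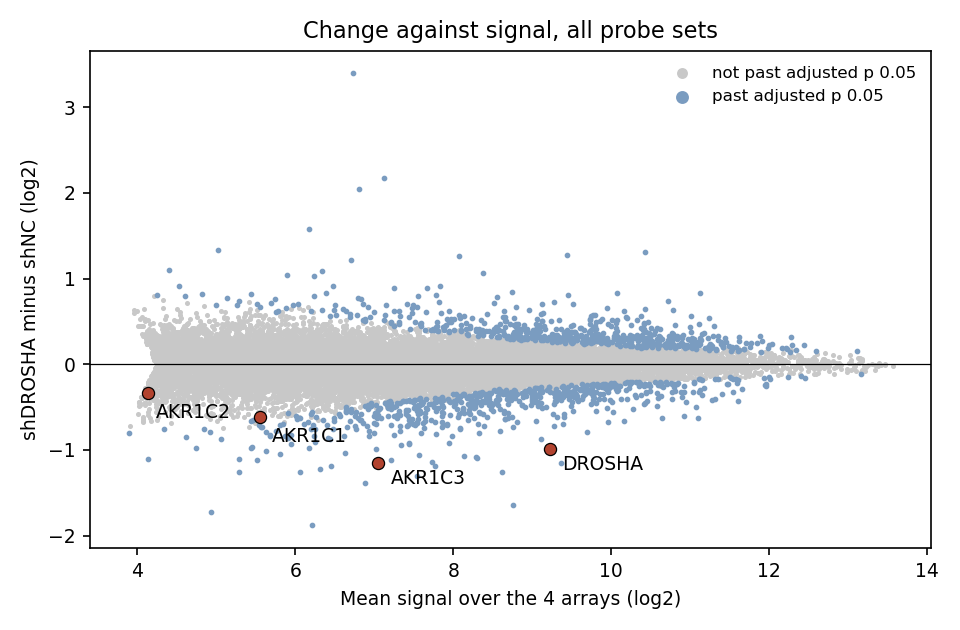
Difference between shDROSHA and shNC (log2) against mean signal over the 4 arrays (log2) for all 18603 probe sets, with blue points past an adjusted p of 0.05 in the trended fit and red circles for the 3 AKR1C genes and DROSHA. AKR1C3 (-1.15) lies at the lower edge of the cloud near the middle of the signal range, AKR1C1 (-0.61) among dim probe sets, and AKR1C2 (-0.33) at the dim end.

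**Figure D3:**
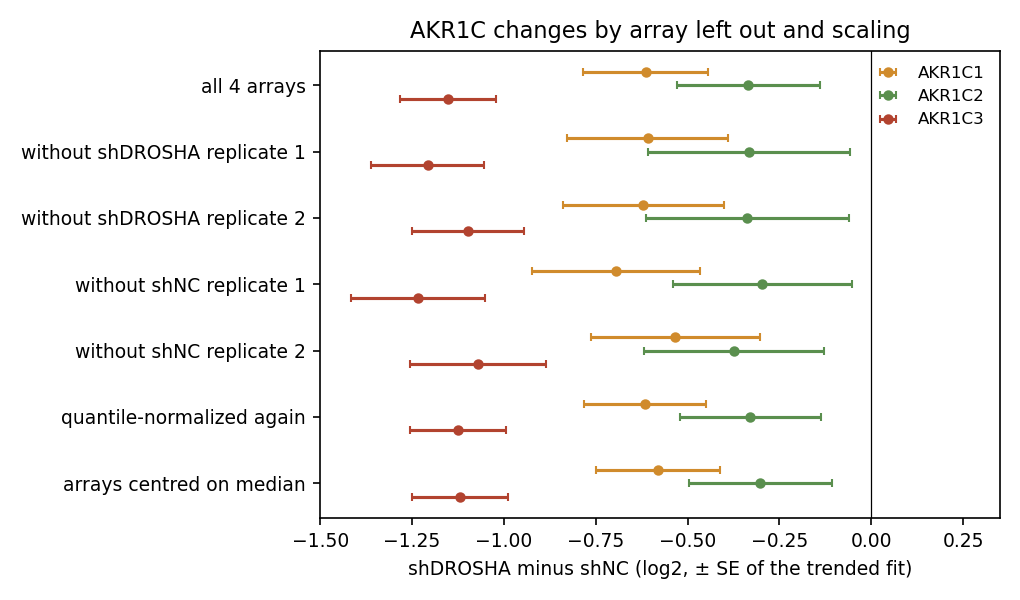
Difference between shDROSHA and shNC (log2, points, with bars for the SE of the trended fit) for AKR1C1, AKR1C2 and AKR1C3 with all 4 arrays, without each array in turn and under 2 further scalings. The order of the 3 genes was the same in all 7 settings shown, and AKR1C3 stayed between -1.07 and -1.23.

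The changes of the 3 genes can be set side by side only as a description, since the value of AKR1C3 chose the family and AKR1C2 lies near the floor of the array. Taken within each array, so that the level of each probe set cancels, the change of AKR1C3 was lower than that of AKR1C1 by -0.54 (SE 0.0605 over the 4 arrays) and lower than that of AKR1C2 by -0.82 (SE 0.133). The change of AKR1C2 was higher than that of AKR1C1 by 0.28 (SE 0.119). These SEs come only from the spread of the 2 arrays in each group. They are not SEs of the trended fit and cannot be compared with those given for single genes. In each pair the within-array values of the groups did not overlap. How often that holds over all pairs of probe sets was not computed. Among single probe sets, groups did not overlap at 47.8%. Compression of dim signals acts in the same order as these differences, with AKR1C2 dimmest and AKR1C3 brightest, and its part was not tested. How far each probe set also responds to transcripts of its paralogs is unknown. The differences are therefore not taken as distinct responses of the 3 genes.

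None of the other measured genes in and around the chromosome 10 cluster, AKR1C8, UCN3 and TUBAL3, passed the threshold. Of all probe sets 6.41% passed it in either direction, so no calls among so few genes says little about the cluster. RefSeq places 20 genes in the stretch from 3 neighbours before the AKR1C cluster to 3 after it, pseudogenes and non-coding genes included, and 6 of them had a named probe set. AKR1C8, which lies between AKR1C3 and AKR1C4, had log2 signals of 4.97 and 4.72 in shDROSHA and 4.68 and 4.52 in shNC, a difference of 0.24 (SE 0.192) that did not pass, at percentile 7.59 of signal. UCN3, the gene of the peptide hormone urocortin 3, differed by -0.018 (SE 0.117), and by 0.015 with each array centred on its median. TUBAL3, a tubulin alpha-like gene at percentile 4.48 of signal, differed by -0.19 (SE 0.217), and by 0.058 without shNC replicate 2. Like AKR1C8, it was among the dimmest probe sets, where few are called. The groups overlapped in UCN3 and in TUBAL3, and not in AKR1C8.

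In the related gene lists that follow, counts of calls are to be read against 3.28% called lower and 3.12% called higher over all probe sets. Bright probe sets were called more often, with 5.31% lower and 5.64% higher among those at or above the median signal. Beyond the AKR1 genes listed, the aldo-keto reductase superfamily showed 0 calls. Of 10 such genes 7 were measured, 2 of them above the median signal, 5 were lower and 2 higher, and the median difference was -0.07. AKR7A2, which reduces succinic semialdehyde, was at 8.55 and 8.28 in shDROSHA and 8.55 and 8.63 in shNC, a difference of -0.17 (SE 0.0998) with overlapping groups. It passed only without shDROSHA replicate 1, at -0.31. AKR1B15, the nearest measured relative of AKR1B10, differed by -0.07 (SE 0.197) at percentile 8.46 of signal. KCNAB1 and KCNAB2, potassium channel beta subunits with an aldo-keto reductase fold, differed by 0.27 (SE 0.222) and -0.08 (SE 0.109).

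Among NRF2 targets outside the AKR1 family, 3 of 25 measured genes fell and 0 rose, and the median over the 25, of which 20 lay above the median signal, was -0.02. SLC7A11, the cystine transporter, fell from 10.11 and 9.95 in shNC to 9.71 and 9.65 in shDROSHA (difference -0.35, SE 0.0689). FTL, the ferritin light chain, fell by 0.18 (SE 0.0421), and GSTM3, a glutathione transferase with close paralogs, fell by 0.24 (SE 0.0618). FTL and GSTM3 were not called with each array centred on its median, nor without either shNC array, and GSTM3 not without shDROSHA replicate 2. SLC7A11 was not called without shNC replicate 1.

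The most widely used readouts of NRF2 activity did not pass in the trended fit. NQO1, a quinone reductase, had log2 signals of 11.34 and 11.35 in shDROSHA and 11.49 and 11.50 in shNC, a difference of -0.15 (SE 0.0428). It was called after a further quantile normalization (-0.18), without dim probe sets and with the replicate number as a block. GCLM, the modifier subunit of glutathione synthesis, differed by -0.20 (SE 0.0749), HMOX1, heme oxygenase, by -0.20 (SE 0.146), and TXNRD1, thioredoxin reductase, by 0.10 (SE 0.0630). The differences of all 25 targets ran from -0.35 to 0.27.

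Of 10 measured regulators of NRF2, 9 of them above the median signal, 1 rose and 0 fell, with a median of 0.01. KEAP1, the adaptor that marks NRF2 for degradation, rose from 7.96 and 7.83 in shNC to 8.34 and 8.24 in shDROSHA (difference 0.39, SE 0.0995). Both knockdown arrays lay above both controls, as at 23.4% of all probe sets. KEAP1 was not called without shDROSHA replicate 1, shNC replicate 1 or shNC replicate 2. CUL3, the ubiquitin ligase scaffold that works with KEAP1, differed by 0.19 (SE 0.0725), and BACH1, a repressor of NRF2 targets, by 0.16 (SE 0.0853). NFE2L2, the gene of NRF2 itself, differed by -0.15 (SE 0.0621). None of the latter 3 passed with all 4 arrays, and CUL3 passed without shDROSHA replicate 2.

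In steroid metabolism and its receptors, 2 of 25 measured genes rose and 0 fell (median 0.04, with 10 of the 25 above the median signal). STS, which frees steroids from their sulfates, rose from 7.91 and 7.89 to 8.40 and 8.20 (difference 0.40, SE 0.101), and HSD17B11, a lipid-droplet short-chain dehydrogenase, rose by 0.20 (SE 0.0435). Both calls were lost without either shNC array, and that of STS also without shDROSHA replicate 1. HSD17B12, which acts in fatty acid elongation, differed by 0.18 (SE 0.0568) and passed only with the replicate number as a block and without shNC replicate 2. The mineralocorticoid receptor NR3C2 differed by -0.67 (SE 0.197) at percentile 0.145 of signal and did not pass. Of the other receptors, NR3C1, the glucocorticoid receptor, differed by -0.09 (SE 0.0554) and ESR1 by 0.12 (SE 0.167), the latter by -0.067 without shDROSHA replicate 1.

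Prostaglandin genes held 1 call among 22 measured members, in the lower direction (median -0.10, with 14 lower and 8 higher, and 8 above the median signal). PTGES, the inducible synthase of prostaglandin E, fell from 8.41 and 8.44 in shNC to 7.90 and 8.15 in shDROSHA (difference -0.41, SE 0.103). It was not called without shDROSHA replicate 1 or without either shNC array. PTGES2, a second synthase of that prostaglandin, differed by -0.35 (SE 0.112), PTGER2, a receptor for prostaglandin E, by -0.38 (SE 0.194), and PTGFR, the receptor for the F form that AKR1C3 makes, by -0.38 (SE 0.197). These 3 did not pass with all 4 arrays, and PTGES2 and PTGFR passed without shDROSHA replicate 1.

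Of 19 measured genes of aldehyde, polyol and retinaldehyde metabolism, 1 rose and 0 fell (median -0.02, with 14 above the median signal). GLO1, which detoxifies methylglyoxal, rose from 10.80 and 10.91 to 11.12 and 11.16 (difference 0.29, SE 0.0518), and was not called without shNC replicate 1. ALDH2, the mitochondrial aldehyde dehydrogenase, differed by -0.41 (SE 0.121), RDH11, a retinaldehyde reductase, by 0.21 (SE 0.0652), and CYP26B1, which breaks down retinoic acid, by -0.31 (SE 0.136). None of these 3 passed in the trended fit as run on all probe sets and arrays. ALDH2 passed with the replicate number as a block, with 1 probe set per gene, without probe sets below the median signal, without shDROSHA replicate 2 and without shNC replicate 1. RDH11 passed with each array centred on its median and among the probe sets at or above the median signal. The constant fit called 0 members of any of the 6 lists, and had 12 of their 108 genes at an unadjusted p under 0.05.

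**Figure D4:**
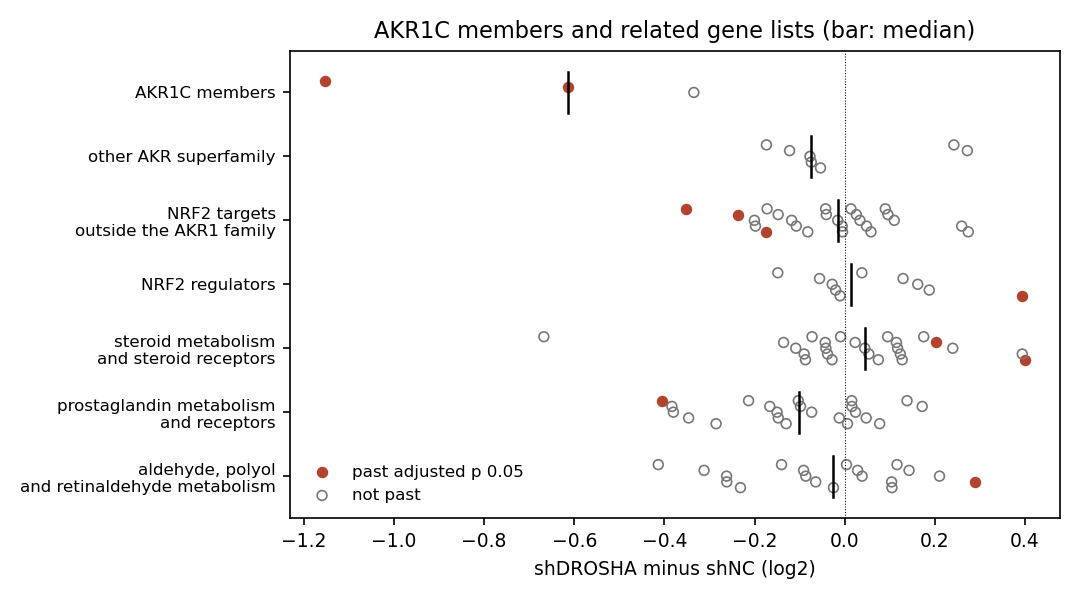
Difference between shDROSHA and shNC (log2) for the 3 AKR1C genes and the measured genes of 6 related lists, 1 point per gene, filled where past an adjusted p of 0.05 in the trended fit, with a bar at each median. The list medians lie between -0.10 and 0.04, and the filled points number 8 among the 108 genes of the lists.

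By the rule used, the genes whose pattern over the 4 arrays was most like that of AKR1C3 were PITPNC1, TC2N, CXCL8, PDE7B and MSANTD4. Likeness was the root mean square difference from AKR1C3 over the 4 arrays, each gene centred on its own mean, among 8489 named probe sets with a group mean at or above the median signal. It was 0.0444 for PITPNC1, a phosphatidylinositol transfer protein (6.77 and 6.55 against 7.68 and 7.87), and 0.0655 for TC2N (7.11 and 6.96 against 8.06 and 8.11). It was 0.0677 for CXCL8, a neutrophil-attracting chemokine, 0.0788 for PDE7B, a cyclic AMP phosphodiesterase, and 0.0798 for MSANTD4. A gene could qualify through its brighter group alone, as PITPNC1 and TC2N did through the controls, so the 5 genes are a description and carry no test. In all, 23 probe sets came within 0.2, and with 4 arrays such likeness mainly reflects a difference of similar size between the groups.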

How the data were processed

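Total RNA of 4 samples was measured on 4 Affymetrix arrays. The authors deposited log2 signals, 1 per probe set and array, made with RMA per the submitters' processing notes, with version, filters and genome build not given in the sources used here. RMA gives arrays nearly the same distribution, and would hide a change common to most transcripts. No detection calls were used, and the number of arrays limits the precision.

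Groups came from the titles. Of 18603 probe sets, 15886 had 1 symbol in the platform annotation, 0 several and 2717 none; all 15886 matched RefSeq (GRCh38.p14) by Entrez identifier. An unnamed probe set is not thereby without a gene. The members and gene lists were chosen with earlier results of these data known.

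limma 3.58.1 in R 4.3.3 (lmFit, eBayes) was fitted across all probe sets, with Benjamini-Hochberg adjustment and a threshold of 0.05. The prior variance followed signal (trended fit), because the median SD within groups was 0.171 among the dimmest and 0.0511 among the brightest of 5 equal bins of probe sets. A constant prior variance was an alternative. For a single gene the smallest two-sided p of an exact permutation test is 0.333 with these arrays. In lists, the brightest probe set stood for each gene. Genes were named by rule: all members, DROSHA, up to 4 genes of smallest p per list, a fixed set of NRF2, steroid and prostaglandin genes where measured, the measured cluster neighbours and the 5 genes most like AKR1C3. Markers, PPFIA2 and AKR1B15, a relative of the unmeasured AKR1B10, were named besides, outside that rule. On simulated data of this comparison (18603 probe sets) the trended fit recovered 99% of probe sets changed by 1 log2 unit. It recovered 54% of those changed by 0.5, with 9 false calls. The constant fit recovered 61% and 2%, with 0 false calls. The simulated spread followed signal and was drawn with the prior of the trended fit. The advantage of the trended fit there was therefore built in, and the simulation cannot choose between the fits. Promoter windows were aligned globally (match 1, mismatch -1, gap opening -2, extension -1, free ends).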

Additional observations from a re-analysis of the deposited data

How the results depend on the processing

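AKR1C1, AKR1C2 and AKR1C3 were lower in shDROSHA under every alternative that kept them. The count of 2 called members became 0 with a constant prior variance, where the differences of AKR1C1 (-0.61) and AKR1C3 (-1.15) no longer passed. It became 1 with each array centred on its median (AKR1C1 at -0.58), 1 without probe sets below the lower quartile of signal, which drops AKR1C1 and AKR1C2, and 1 to 1 without any 1 array. Leaving out single arrays gave -0.53 to -0.70 for AKR1C1, -0.30 to -0.37 for AKR1C2 and -1.07 to -1.23 for AKR1C3, the lone array being assumed to vary like the other group. Without probe sets below the median no member was left.

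Over all probe sets the 1192 calls became 1 with a constant prior variance (2774 at unadjusted p under 0.05), 1824 at adjusted p 0.10, and 535 (without shNC replicate 1) to 1949 (without shDROSHA replicate 1) without 1 array, with 748 without shNC replicate 2. The 8 calls in the 6 related lists became 0 (12 at unadjusted p under 0.05 in limma), 14 and 1 to 9 in the same order, with 1 without shNC replicate 1 and 3 without shNC replicate 2. With the replicate number as a block the counts were 1391, 2 and 11. Deviations of same-numbered arrays correlated at -0.0218 over all probe sets. With these few arrays that value cannot settle what same-numbered samples shared, which the labels do not state. Single genes that changed sign, none of them called, were ESR1 (-0.067 to 0.30), UCN3 (-0.14 to 0.10), KCNAB1 (-0.0014 to 0.55), KCNAB2 (-0.17 to 0.013) and TUBAL3 (-0.44 to 0.058) over the arrays left out, and UCN3 with quantile normalization again (0.019) and with arrays centred (0.015). The looser threshold and the filters act by construction, and the other causes were not tested. Dim signal limits AKR1C1 and most of all AKR1C2.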
